A study of Mus musculus with 12 samples.

Results

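Alternative activation marker genes are described here in mouse bone marrow neutrophils and macrophages that were exposed to CGRP, a neuropeptide released by pain-sensing nerve endings. The 7 genes described are the secreted lectin-like and resistin-like proteins *Chil3* and *Retnla*, the scavenger receptors *Mrc1* and *Cd163*, the receptor *Il4ra*, and *Il10* with its receptor *Il10ra*. They were taken by gene name, and each was found once among the 52636 genes listed for either cell type. Per the study's methods, the bone marrow came from wild-type C57BL/6 J mice of 8 to 12 weeks, and neutrophils and monocytes were obtained with separate isolation kits. Freshly isolated neutrophils were kept in RPMI. Monocytes were first grown in DMEM/F12 with 10 ng/ml of M-CSF, the growth factor that turns monocytes into macrophages, for 3 days, and their labels read monocyte/macrophage. Each cell type then received 1 nM CGRP or saline (PBS) for 4 h, which gave 4 groups of 3 libraries and 12 libraries in all. The treatment notes name neither IL-4, IL-13 nor IL-10 for any group, and no gene was deleted in any of them. Neither the labels nor the methods say whether the libraries of a group came from different mice, so p-values measure only the spread between these samples, which may be technical.

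Library totals ran from 2719556 to 3631989 counts in saline-treated neutrophils and from 2196558 to 3270388 in CGRP-treated neutrophils. In macrophages they ran from 2536415 to 3477069 with saline and from 2002559 to 3259073 with CGRP. Reverse transcription started from the poly-A tail, sequencing ran from a tagmentation cut ahead of it, and PCR copies were removed by molecular tags, so a count stands for a tagged cDNA molecule read toward the 3′ end of a transcript. Levels are given as CPM, a gene's counts relative to the library total, scaled over the 12 libraries by the trimmed mean of M values (TMM), a correction for differences in RNA composition. A floor of 3 counts corresponds to 0.826 to 1.5 CPM of the unscaled library total and covers counting error only. Log2 fold changes, with their standard error (SE), compare CGRP with saline inside a cell type by limma-voom, two-sided, with Benjamini–Hochberg adjustment over all genes tested, and a gene passed when its adjusted p was under 0.05.

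Alternative activation is the state that macrophages enter under the type 2 cytokines IL-4 and IL-13, which act through IL-4Rα and the transcription factor STAT6 and are known to induce *Chil3*, *Retnla* and *Mrc1*. IL-10, acting through IL-10Rα and STAT3, gives a related anti-inflammatory state that includes CD163. CGRP acts on a receptor made of CALCRL and RAMP1 that raises cyclic AMP, a second messenger known to favour IL-10 in myeloid cells.

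Among the 7 genes described, none of those that could be tested passed for CGRP against saline in either cell type. In neutrophils, 0 of the 6 that could be tested passed by limma-voom or edgeR, where 2.53% of the 9819 genes tested passed by limma-voom. DESeq2 gave an adjusted p to 3 of the 6, and 0 passed there. By limma-voom, 0 of the 6 had an unadjusted p under 0.05, as 1257 of the 9819 did. The saline and CGRP libraries overlapped for each of these 6, while 17.8% of all genes tested had groups that did not overlap. In macrophages, 0 of the 4 that could be tested passed by any of the 3 tools, where 7.43% of 9393 genes passed by limma-voom. The ones with an unadjusted p under 0.05 there, as 1860 of the 9393 had by limma-voom, were *Chil3*, by limma-voom and edgeR, and *Il10ra*, by all 3 tools. These also had groups that did not overlap, as held for 24.1% of all genes tested, and *Il10ra* came closest to the threshold (log2 fold change 0.53, adjusted p = 0.0629 by limma-voom). The median log2 fold change of the genes described was −0.067 in neutrophils, with 2 of 6 above 0, and 0.293 in macrophages, with 4 of 4 above 0. The summed macrophage markers were also higher with CGRP in macrophages (given below), and their part in these values was not tested. Over all genes tested, the median was 0.000801 in neutrophils and 0.00465 in macrophages. In the interaction test, which compares the CGRP responses of the cell types, 2.36% of 10694 genes passed. None of the 4 genes described that were tested in both passed it by limma-voom, edgeR or DESeq2. By limma-voom, 1 of them, *Chil3*, had an unadjusted p under 0.05, as did 1416 of the 10694. The genes left out for low counts were *Il10* in neutrophils and *Retnla*, *Cd163* and *Il10* in macrophages, so that these numbers do not describe all 7. With no filter on low counts, those left out in macrophages had log2 fold changes below 0 and did not pass by limma-voom. The values were −1.86 (SE 0.69) for *Il10*, −0.88 (SE 0.78) for *Cd163* and −0.22 (SE 0.70) for *Retnla*.

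**Figure D1:**
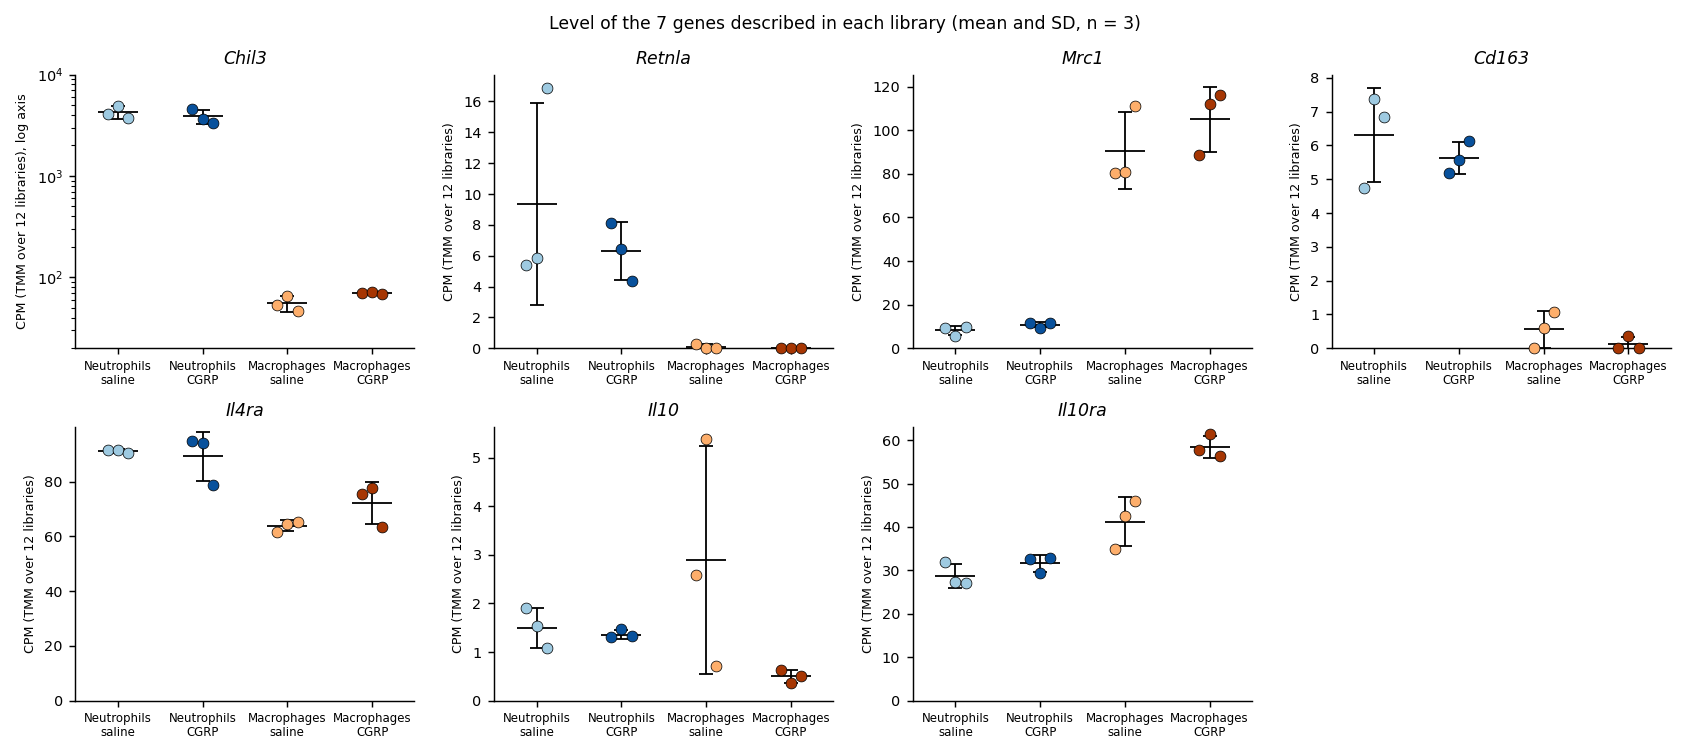
Level of each of the 7 genes in CPM (TMM-scaled over the 12 libraries) in saline-treated and CGRP-treated neutrophils and macrophages; each point is a library, and the bar and whiskers give the mean and SD of 3 libraries. The *Chil3* axis is logarithmic and runs from macrophages near 55.3 to neutrophils near 4247 CPM. The CGRP libraries lie above the saline libraries for *Chil3* and *Il10ra* in macrophages and below them for *Il10*, which was at low counts there, and overlap them for every gene in neutrophils.

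**Figure D2:**
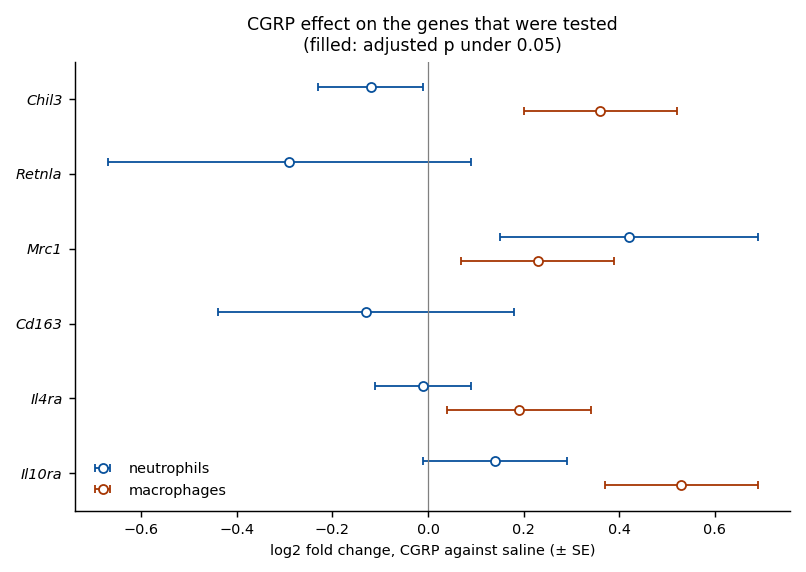
Log2 fold change of CGRP against saline, with its SE, for the genes tested in neutrophils (6) and macrophages (4); a filled point would have an adjusted p under 0.05 by limma-voom. All points are open, and the highest is *Il10ra* in macrophages (0.53).

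The labels were checked against cell type markers. The summed level of 12 neutrophil markers was 167519 to 241397 CPM in saline-treated neutrophils and 307 to 399 CPM in saline-treated macrophages, or 0.174% of the neutrophil mean. The summed level of 12 macrophage markers was 40947 to 46064 CPM in saline-treated macrophages and 50089 to 55454 CPM in CGRP-treated macrophages, without overlap. There, 11 of the 12 had a log2 fold change above 0 (median 0.237), with *Apoe* (an apolipoprotein, the most abundant) and *Ctsl* (a lysosomal protease) passing upward and *Lpl* (lipoprotein lipase) downward by limma-voom. The sum was 2103 to 2150 CPM in saline-treated neutrophils, 4.97% of the macrophage mean, with *Apoe* at 1262 CPM over the 6 neutrophil libraries. In neutrophils *Ctsl* also passed upward (132 to 169 CPM) and *Lpl* downward (56.7 to 20.1 CPM), with 5 of 11 tested above 0 (median −0.018). None of the defining markers of either list was at 0 in every library of the other cell type. *Ly6g*, however, had 0, 3 and 2 counts in saline-treated and 1, 2 and 0 in CGRP-treated macrophages, at or under the floor. The neutrophil libraries also held markers of basophils and mast cells (967 to 1182 CPM summed over 8 genes, led by *Prss34*), eosinophils (531 to 651 CPM over 6 genes, nearly all from *Prg2*, a granule protein) and the erythroid lineage (5773 to 7381 CPM over 6 genes). In macrophages these sums were at most 19.2, 12.3 and 27.0 CPM, and the eosinophil peroxidase gene *Epx* was at 0, against 28.1 CPM in saline-treated neutrophils. Not every eosinophil marker followed the sum. *Il5ra* had at most 1 count in any library, and the chemokine receptor *Ccr3* was at 2.24 CPM in saline-treated neutrophils and 6.65 CPM in saline-treated macrophages. B cell markers (6 genes, led by *Ighm*) summed to 639 to 742 CPM in the neutrophil libraries and 103 to 145 CPM in the macrophage libraries. The monocyte sum (6 genes, led by *Ly6c2*) was 3318 to 3999 CPM in saline-treated and 2673 to 3479 CPM in CGRP-treated neutrophils, where 1 of 6 had a log2 fold change above 0 (median −0.287) and *Ccr2*, a chemokine receptor, passed downward. In macrophages the sum was 1077 to 1141 CPM with saline and 1004 to 1070 CPM with CGRP, with 4 of 6 above 0 (median 0.22) and *Ccr2* and *Cx3cr1*, another chemokine receptor, passing downward. The part of such other cells in the levels of the genes described was not tested, and in bulk samples fewer cells of a type and less RNA per cell cannot be told apart.

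**Figure D3:**
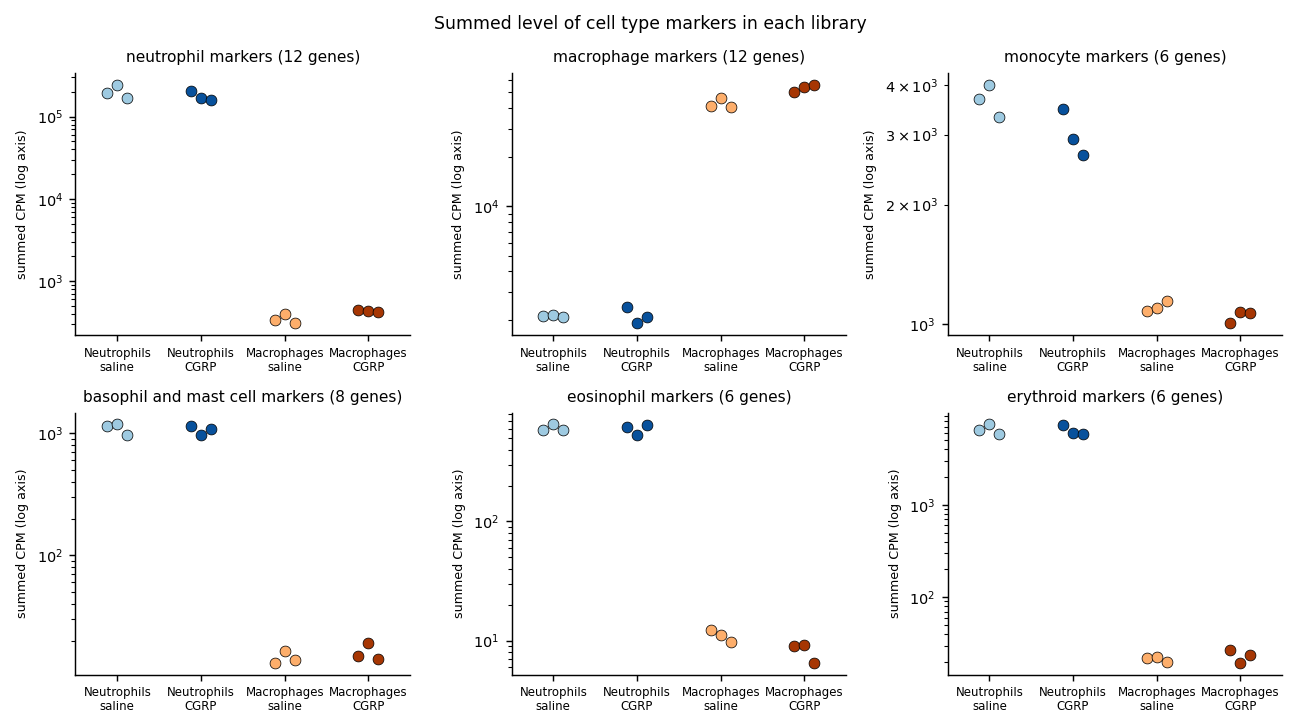
Summed level of cell type markers in each library, in CPM on logarithmic axes, for 6 marker lists in the 4 groups; each point is a library. Neutrophil markers lie between 161117 and 241397 CPM in neutrophils and between 307 and 450 CPM in macrophages, and the summed basophil, eosinophil (nearly all *Prg2*) and erythroid markers are higher in the neutrophil libraries.

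*Chil3* encodes the secreted chitinase-like protein Ym1 (ENSMUSG00000040809, chromosome 3 of GRCm38, 106147554 to 106167564, minus strand), and *Retnla* encodes the resistin-like protein RELMα or FIZZ1 (ENSMUSG00000061100, chromosome 16, 48842551 to 48844461, plus strand). Both are classic STAT6-induced markers in macrophages, and both were far higher in the neutrophil libraries than in the macrophage libraries. The sequences ahead of both start sites are shown because the letters of a STAT site occur in each. They come from RefSeq on GRCm38.p6, run 5′ to 3′ on the gene's strand, and cover bases 250 to 101 before the RefSeq start, which is the GENCODE start for *Chil3* and lies 58 bases downstream of it for *Retnla*. In the *Retnla* stretch (chr16:48842359-48842508, plus strand) capitals mark TTCNNNNGAA, the spacing preferred by STAT6, 145 bases before the RefSeq start. In the *Chil3* stretch (chr3:106167665-106167814, minus strand) they mark TTCNNNGAA, the general STAT spacing, 172 bases before its RefSeq start.
Retnla: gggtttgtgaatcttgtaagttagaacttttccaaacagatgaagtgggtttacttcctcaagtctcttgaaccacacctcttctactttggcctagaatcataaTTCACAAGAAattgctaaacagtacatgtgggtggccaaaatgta
Chil3: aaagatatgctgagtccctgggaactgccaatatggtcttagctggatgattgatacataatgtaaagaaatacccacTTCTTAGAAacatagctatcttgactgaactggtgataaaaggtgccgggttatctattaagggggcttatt
Both patterns read the same on either strand, and neither gene's 250 bases held both. Among the 250 bases before the start of 32851 RefSeq promoters, 5.85% hold TTCNNNNGAA and 7.02% hold TTCNNNGAA. The promoters of *Mrc1*, *Cd163* and *Il4ra*, the other genes described that were found in that table, held neither, and none of these 5 held TGACG, the core of a cyclic AMP response element, which occurs in 17.8% of all.

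*Chil3* was at 4106, 4940 and 3696 CPM in saline-treated neutrophils and at 4573, 3683 and 3332 CPM with CGRP. Those groups overlapped (log2 fold change −0.12, 95% confidence interval −0.34 to 0.10, adjusted p = 0.696 by limma-voom). In macrophages it was at 53.4, 66.2 and 46.4 CPM with saline and at 70.2, 71.7 and 68.9 CPM with CGRP. The macrophage groups did not overlap, but the change of 0.36 (95% confidence interval 0.02 to 0.70) did not pass with an adjusted p of 0.222. The response was higher in macrophages than in neutrophils by 0.49 (SE 0.21), a difference that did not pass either (adjusted p = 0.296 for the interaction). The neutrophil marker sum moved with it, from 338, 399 and 307 CPM with saline to 450, 429 and 423 CPM with CGRP in macrophages. All 9 neutrophil markers tested there had a log2 fold change above 0, led in level by *S100a8* at 154 CPM over the 6 libraries. None passed by limma-voom, edgeR or DESeq2, and 2 had an unadjusted p under 0.05. *Chil3* in saline-treated macrophages stood at 1.30% of its neutrophil level, against 0.174% for the neutrophil marker sum and 0.0438% to 11.9% for its single genes, and the part of neutrophil RNA in its change was not tested. *Chil3* shares 44.0% of its 31-base sequences with other genes, mainly *Chil4*, and 20.3% within the last 500 bases of the transcript. *Chil4* had at most 1 count in any library.

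*Retnla* was at 5.38, 5.83 and 16.9 CPM in saline-treated neutrophils and at 8.13, 6.45 and 4.38 CPM with CGRP. The groups overlapped, with saline replicate 3 the highest library (log2 fold change −0.29, 95% confidence interval −1.08 to 0.51, adjusted p = 0.831). Without that library the value was 0.20. In macrophages *Retnla* was essentially not detected, with 1 count in saline replicate 1 and 0 in the other 5 libraries. Over saline libraries, 83 counts in neutrophils against 1 in macrophages gave a ratio of 80.8 per library total (exact 95% interval 14.1 to 3229, counting error only). Without neutrophil saline replicate 3, which held 47 of the 83 counts, the ratio was 48.8 (8.21 to 1980), and without macrophage saline replicate 2 it was 50.9. Without macrophage saline replicate 1, the macrophage count was 0 and the exact lower limit was 13.7. Its close relative *Retnlg* was at 15162 ± 2284 CPM in saline-treated neutrophils (SD, n = 3). Of the 31-base sequences of *Retnla*, 5.45% are shared with other genes, mainly *Retnlg*, and 2.55% within the last 500 bases of the transcript. The part of *Retnlg* reads in the *Retnla* counts was not tested. Of 14 paralogs, 6 could be tested in neutrophils and 2 in macrophages. None passed by limma-voom, where 2.53% and 7.43% of all genes did. *Chil1* in neutrophils and *Retnlg* in macrophages had an unadjusted p under 0.05, and DESeq2 called *Chil1*, which went from 923 ± 32.5 to 755 ± 34.7 CPM (SD, n = 3).

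*Mrc1* encodes the mannose receptor CD206, a surface marker of alternatively activated macrophages (ENSMUSG00000026712, chromosome 2, 14229392 to 14332057, plus strand). Its level was 80.3, 80.6 and 111 CPM in saline-treated macrophages and 88.4, 112 and 116 CPM with CGRP. The groups overlapped, and the log2 fold change of 0.23 (SE 0.16, 95% confidence interval −0.12 to 0.57) had an adjusted p of 0.495 by limma-voom. A rise beyond 0.57 lies outside the interval of this fit, which measures only the spread between these samples. The value was 0.18 to 0.35 in the 9 alternative fits and 0.15 to 0.38 with a library left out, and passed in none. In neutrophils, *Mrc1* was at 9.17, 5.83 and 9.73 CPM with saline and at 11.4, 9.39 and 11.4 CPM with CGRP (0.42, SE 0.27, adjusted p = 0.563). The difference between the cell types in this response was −0.18 (SE 0.34, adjusted p = 0.883). *Mrc1* in saline-treated neutrophils stood at 9.10% of its macrophage level, beside 4.97% for the macrophage marker sum and 1.24% to 25.9% for its single genes.

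*Cd163* encodes the receptor that clears haemoglobin–haptoglobin complexes and is induced by IL-10 (ENSMUSG00000008845, chromosome 6, 124304656 to 124330527, plus strand). It was at 4.74, 7.37 and 6.85 CPM in saline-treated neutrophils and at 5.20, 5.57 and 6.14 CPM with CGRP. The CGRP libraries all lay within the saline range (log2 fold change −0.13, 95% confidence interval −0.78 to 0.52, adjusted p = 0.913). Macrophages had 0, 2 and 3 counts of *Cd163* after saline against 0, 1 and 0 after CGRP, which is at or under the floor in every library. Of the scavenger receptors, *Mrc1* was therefore seen mainly in macrophages and *Cd163* mainly in the neutrophil libraries. The counts of *Cd163* in saline libraries, 58 in neutrophils and 5 in macrophages, gave a ratio of 11.3 per library total (exact 95% interval 4.57 to 36.1, counting error only). Without macrophage saline replicate 3, which held 3 of the 5, it was 20.6 (5.45 to 174), and without macrophage saline replicate 1 it was 7.23.

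*Il4ra* encodes the chain through which both IL-4 and IL-13 signal (ENSMUSG00000030748, chromosome 7, 125552120 to 125579474, plus strand). It was at 91.7, 91.5 and 90.4 CPM in saline-treated neutrophils and at 94.9, 93.9 and 78.9 CPM with CGRP. In macrophages it was at 61.7, 64.4 and 65.4 CPM with saline and at 75.5, 77.6 and 63.4 CPM with CGRP. CGRP replicate 3 was the lowest of its group in both cell types, and the groups overlapped in both. The log2 fold change was −0.01 in neutrophils (95% confidence interval −0.23 to 0.21, adjusted p = 0.987 by limma-voom) and 0.19 in macrophages (−0.13 to 0.50, adjusted p = 0.54). Of 18 genes of IL-4 and IL-13 signalling, 14 were tested in neutrophils and 13 in macrophages, with medians of −0.00642 and −0.00218. In each cell type 1 passed, where 2.53% of all genes tested did in neutrophils and 7.43% in macrophages. It was *Ptpn6*, the phosphatase SHP-1, which dampens cytokine receptor signalling. It fell in neutrophils from 590 ± 45.4 to 437 ± 27.2 CPM (SD, n = 3, log2 fold change −0.42, SE 0.08, adjusted p = 0.00499). In macrophages it fell further, from 245 ± 18.7 to 117 ± 9.02 CPM (−1.05, SE 0.13, adjusted p = 8.37e-05), and the interaction passed (−0.62, adjusted p = 0.0269). The neutrophil change missed the threshold without saline replicate 1, as the interaction did in 6 of 12 fits with a library left out. *Stat6* did not pass (0.12 in neutrophils, −0.04 in macrophages), and the cytokine genes *Il4* and *Il13* were too low to be tested.

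*Il10* encodes the anti-inflammatory cytokine IL-10 (ENSMUSG00000016529, chromosome 1, 131019845 to 131024974, plus strand). Macrophage libraries held 9, 18 and 2 counts after saline. After CGRP they held 2, 1 and 1, so that only saline replicates 1 and 2 were above the floor. In CPM the groups did not overlap, with 2.58, 5.39 and 0.719 CPM after saline and 0.627, 0.369 and 0.503 CPM after CGRP. Saline replicate 3 and CGRP replicate 1 both had 2 counts, so their order in CPM comes only from the library scaling. Summed, 29 counts with saline against 4 with CGRP gave a ratio of 6.14 per library total (exact 95% interval 2.16 to 24.0, counting error only). Without saline replicate 2 it was 3.70 (1.10 to 15.9). With no filter on low counts, the limma-voom log2 fold change was −1.86 (SE 0.69) with an adjusted p of 0.137. In neutrophils there were 6, 5 and 3 counts after saline against 4, 5 and 3 after CGRP, and *Il10* was tested only with no filter (−0.10, SE 0.59, adjusted p = 0.974).

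*Il10ra* encodes the ligand-binding chain of the IL-10 receptor (ENSMUSG00000032089, chromosome 9, 45253837 to 45269149, minus strand). In macrophages it was at 35.0, 42.6 and 46.0 CPM with saline and at 57.7, 61.3 and 56.3 CPM with CGRP. The groups did not overlap, and the change of 0.53 (SE 0.16, 95% confidence interval 0.18 to 0.87) had an adjusted p of 0.0629 by limma-voom and did not pass. In neutrophils it was at 31.9, 27.3 and 27.0 CPM with saline and at 32.5, 29.3 and 32.9 CPM with CGRP (0.14, 95% confidence interval −0.17 to 0.46, adjusted p = 0.774). The difference between these responses did not pass (0.39, SE 0.22, adjusted p = 0.471). In macrophages, *Il10ra* passed in 3 of 9 alternative fits and in 1 of 6 with a library left out, the fit without saline replicate 3 (adjusted p = 0.0441). *Il10rb*, the shared second chain, had values of 0.23 (adjusted p = 0.318) in neutrophils and −0.19 (adjusted p = 0.438) in macrophages.

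Of 14 genes of IL-10 signalling and its targets, none of the 13 tested in neutrophils passed by limma-voom or edgeR, nor did the 12 with an adjusted p in DESeq2 (median 0.0538, all genes 2.53%), and 2, *Il1rn* and *Il10rb*, had an unadjusted p under 0.05. In macrophages 4 of the 12 tested rose and 1 fell (median 0.384), where 7.43% of all genes passed. *Stat3*, the transcription factor downstream of the IL-10 receptor, went from 102 ± 20.8 to 187 ± 26.7 CPM in macrophages (SD, n = 3, log2 fold change 0.88, adjusted p = 0.00246 by limma-voom). *Nfil3*, a repressor of *Il12b*, went from 20.7 ± 2.88 to 84.7 ± 4.65 CPM (2.03, adjusted p = 1.76e-06). *Bcl3*, an inhibitor of NF-κB output, rose by 1.5 (adjusted p = 0.00914). *Ddit4*, an inhibitor of mTOR signalling, rose by 3.10 (adjusted p = 0.00188) from 0.91 ± 0.776 CPM, which is near the floor, and *Etv3*, a transcriptional repressor, fell by 0.75 on the log2 scale (adjusted p = 0.0266). *Bcl3* missed the threshold without saline replicate 1 or CGRP replicate 2, and *Etv3* without either of these or CGRP replicate 3. Of 16 genes known to promote or restrain *Il10* transcription in myeloid cells, 15 were tested in each cell type (median 0.0463 in neutrophils, −0.0338 in macrophages), with 2 called in neutrophils and 3 in macrophages (all genes 2.53% and 7.43%). *Sik3*, a salt-inducible kinase (1.21, adjusted p = 0.00342), and *Dusp1*, a MAP kinase phosphatase (0.41, adjusted p = 0.0249), rose in neutrophils. *Dusp1* passed in 1 of 6 fits with a library left out, the fit without CGRP replicate 3, and missed with DESeq2, with no filter and in the single fit over 12 libraries (adjusted p up to 0.0932). In macrophages *Nfil3*, *Crtc3* (1.64, adjusted p = 0.00543) and *Crem* rose, with *Crem*, which encodes cyclic AMP-responsive activators and repressors, going from 13.8 ± 1.33 to 178 ± 12.6 CPM (3.68, adjusted p = 5.40e-09).

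Arginine and polyamine metabolism was followed with a list of 24 genes, which also holds the nitric oxide synthases. In neutrophils, 2 of the 18 genes tested passed, each upward (median log2 fold change 0.0727). In macrophages, 1 of 17 rose and 1 fell (median 0.0553). Over all genes tested, 2.53% passed in neutrophils and 7.43% in macrophages. *Smox*, the oxidase that converts spermine back to spermidine, rose in both cell types. It went from 33.2 ± 1.53 to 47.7 ± 4.14 CPM in neutrophils (SD, n = 3, adjusted p = 0.0361 by limma-voom) and from 24.1 ± 1.67 to 53.7 ± 2.96 CPM in macrophages (adjusted p = 3.67e-04). *Sms*, spermine synthase, fell in macrophages from 38.1 ± 6.2 to 18.0 ± 2.37 CPM (log2 fold change −1.05, SE 0.21, adjusted p = 0.00476). *Azin1*, which protects ornithine decarboxylase from degradation, rose in neutrophils (0.41, SE 0.09, adjusted p = 0.0172). With single neutrophil libraries left out, *Smox* passed in 2 of 6 fits (not without any of the saline replicates or CGRP replicate 2) and *Azin1* in 4 of 6 (not without saline or CGRP replicate 1). The neutrophil call of *Smox* was also lost with DESeq2, with no filter and in the single fit (adjusted p up to 0.0936), and that of *Azin1* in the single fit (adjusted p = 0.0932). The value of *Azin1* in macrophages was −0.37 (adjusted p = 0.13), and the interaction passed (−0.77, adjusted p = 0.00836). *Odc1*, ornithine decarboxylase itself, did not pass in either cell type (1.14 with adjusted p = 0.138 in neutrophils, 1.06 with adjusted p = 0.0971 in macrophages). *Nos2*, the inducible nitric oxide synthase of classically activated macrophages, had 0 counts in all macrophage libraries, under the floor of 3 counts.

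Further alternative activation genes moved in both directions. Of 36 listed, 28 were tested in neutrophils, where 2 rose and 1 fell (median −0.0381), and 27 in macrophages, where 3 rose and 5 fell (median 0.0385), beside 2.53% and 7.43% of all genes. *Tgm2*, a transglutaminase, rose in both cell types (1.48 with adjusted p = 7.16e-08 in neutrophils, 2.19 with adjusted p = 1.75e-07 in macrophages). *Cd200r1*, an inhibitory receptor induced by IL-4, moved in opposite directions. It rose from 15.4 ± 1.89 to 26.3 ± 2.61 CPM in neutrophils (0.78, adjusted p = 0.0225) and fell from 114 ± 13.7 to 73.2 ± 13.9 CPM in macrophages (−0.64, adjusted p = 0.024; SD, n = 3), with an adjusted p of 0.00218 for the interaction. With a library left out, its rise passed in 3 of 6 fits (not without saline replicate 1 or 2 or CGRP replicate 1) and its fall in 2 of 6 (those without saline replicate 3 or CGRP replicate 1), while the interaction passed in 12 of 12. Its rise was also lost in the single fit (adjusted p = 0.0932). Among transcription factors of the list, *Egr2*, *Pparg* and *Myc* fell in macrophages by 2.46, 1.76 and 1.88 on the log2 scale (adjusted p = 8.94e-07, 1.72e-05 and 9.48e-04), and *Klf4* fell in neutrophils by 0.76 (adjusted p = 0.00402). *Egr2* went from 81.3 ± 2.12 to 14.4 ± 2.16 CPM. Among effectors in macrophages, the growth factor *Vegfa* (2.52, adjusted p = 1.70e-05) and the inhibitory Fc receptor *Fcgr2b* (1.14, adjusted p = 1.87e-05) rose, and the growth factor *Igf1* fell by 0.51 (adjusted p = 0.0265). *Igf1* missed the threshold without saline replicate 1 or CGRP replicate 2 or 3. *Clec10a*, *Mgl2* and *Ccl24*, lectins and a chemokine usually counted with *Mrc1* and *Retnla*, did not pass in either cell type. In macrophages their values were −0.27, 0.95 and 0.45 (adjusted p = 0.393, 0.191 and 0.122 by limma-voom). The macrophage groups did not overlap for *Mgl2* and *Ccl24*, with CGRP higher, as non-overlap held for 24.1% of all genes tested. In neutrophils the values were 0.02, −0.24 and −0.11, and the groups overlapped.

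Classical activation genes, the counterpart list of 34, had 2 of 24 tested that passed in neutrophils, each upward (median 0.0363), and 3 of 17 that rose and 5 that fell in macrophages (median 0.391), beside 2.53% and 7.43% of all genes. *Il1b* rose in both, from 92.7 ± 6.80 to 191 ± 26.6 CPM in neutrophils (1.06, adjusted p = 3.22e-06 by limma-voom) and from 4.34 ± 0.984 to 56.4 ± 5.89 CPM in macrophages (3.71, adjusted p = 6.41e-07; SD, n = 3). *Acod1*, which makes itaconate, rose in neutrophils (1.55, adjusted p = 0.00586). The chemokines *Ccl2*, *Ccl3* and *Ccl4* fell in macrophages by 2.05, 1.58 and 1.87 on the log2 scale (adjusted p = 2.04e-05, 5.12e-04 and 2.30e-05). *Tnf* fell by 2.24 (adjusted p = 0.0149) and *Cd40* by 1.40 (adjusted p = 0.0169). *Tnf* had 24, 13 and 10 counts after saline but 3, 3 and 1 after CGRP, at or under the floor, so that the size of its fall is uncertain. The costimulatory *Cd86* (0.71, adjusted p = 0.0136) and the chemokine *Ccl5* (0.60, adjusted p = 0.0473) rose. With a library left out, *Tnf* and *Cd40* each passed in 2 of 6 fits, *Ccl5* in 1 of 6, *Cd86* in 5 of 6 and *Acod1* in 4 of 6. Each missed without saline replicate 1. *Ccl5* passed in 5 of 9 alternatives and missed with DESeq2, with library totals, with no filter and with at least 10 counts in every library (adjusted p up to 0.103). *Tnf* also missed without any of the CGRP replicates, *Cd40* without saline replicate 2 or CGRP replicate 2 or 3, *Ccl5* without every other library but saline replicate 3, and *Acod1* without saline replicate 2. In macrophages, therefore, both lists held genes that rose and genes that fell.

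**Figure D4:**
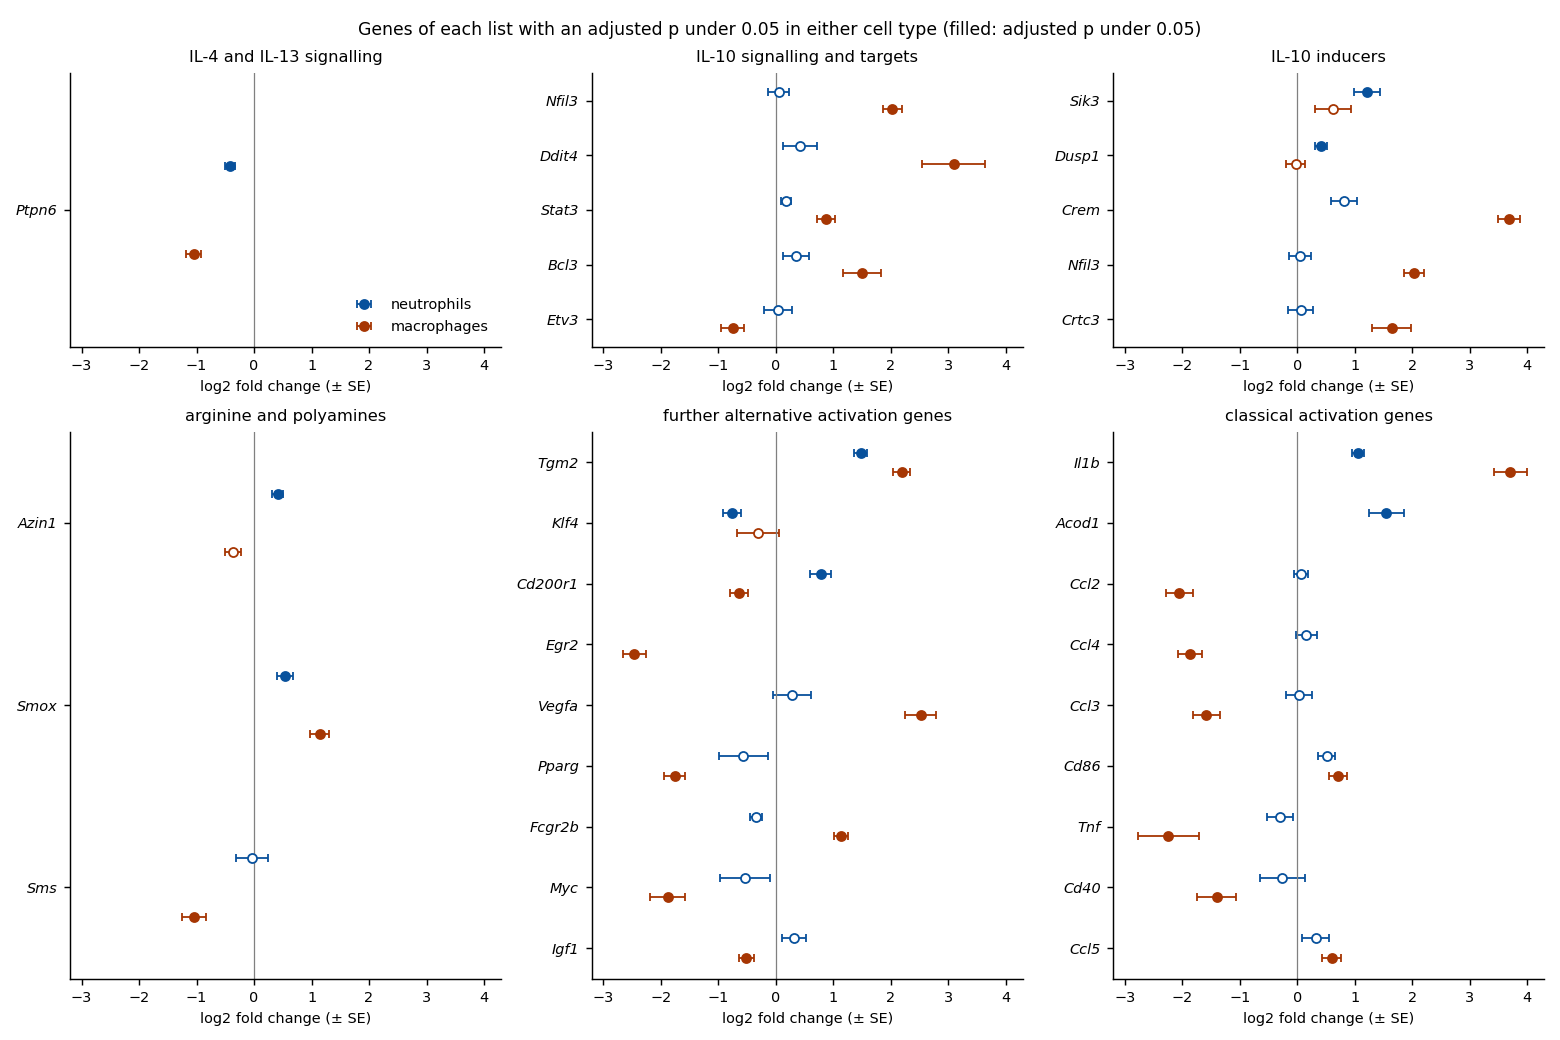
Log2 fold change of CGRP against saline, with its SE, for the genes of 6 lists that had an adjusted p under 0.05 in either cell type; filled points passed in that cell type, and a missing point was not tested. Each macrophage list with more than 1 gene shown, except the *Il10* inducers, holds filled points on both sides of 0, and *Cd200r1* is filled on opposite sides in the 2 cell types (0.78 and −0.64).

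In saline-treated cells, the order of levels differed from gene to gene. Of the 7 genes described, 6 were tested between the cell types, where 67.9% of 10694 genes passed. *Mrc1*, *Chil3*, *Il4ra* and *Il10ra* passed. *Retnla* and *Cd163*, too low for the test within macrophages, entered this fit through their neutrophil counts. Their passing was therefore largely set by the filter. Cell type here cannot be told apart from the 3 days of culture with M-CSF and from the medium. *Mrc1* was 11-fold higher in macrophages (log2 difference 3.46, SE 0.25, adjusted p = 3.00e-11 by limma-voom) and *Il10ra* was 1.41-fold higher (0.50, SE 0.15, adjusted p = 0.00644). *Chil3* was 76.5-fold higher in neutrophils (−6.26, SE 0.15, adjusted p = 5.32e-20), and *Il4ra* was 1.43-fold higher (−0.52, SE 0.12, adjusted p = 7.37e-04). *Retnla* and *Cd163* had more counts in the neutrophil libraries, and only the counting ratios given above describe that difference. Across the 4 groups, *Chil3* ran from neutrophils, whose saline and CGRP libraries overlapped, through CGRP-treated to saline-treated macrophages. *Il4ra* had the same order, with overlap inside each cell type. *Mrc1* ran from macrophages to neutrophils, with saline and CGRP libraries overlapping in both. *Il10ra* was highest in CGRP-treated macrophages, followed without overlap by saline-treated macrophages and then by neutrophils, whose groups overlapped.

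The genes most alike in pattern were found for the 4 genes described that were tested in both cell types, by the Euclidean distance of log2 levels (with 0.5 CPM added) centred on each gene's mean over the 12 libraries, among 8634 other genes. The libraries share cell type and depth, so these distances are descriptions. *Chil3* was closest to *Ly6c2* (0.406), the most abundant of the monocyte markers in neutrophils, and to *Plac8* (0.828), where the median distance was 10.5. *Ly6c2* was at 2706 CPM in saline-treated neutrophils and 31.3 CPM in saline-treated macrophages. *Mrc1* lay closest to the acyltransferase gene *Agpat3* (0.748) and the ATP-gated channel gene *P2rx4* (0.755), *Il4ra* to *Maea* (0.326) and *Mrpl43* (0.329), and *Il10ra* to *Fcgr4* (0.322) and *Cfp* (0.356). *Fcgr4*, an activating Fc receptor, went from 103 to 152 CPM in macrophages and from 67.8 to 82.6 CPM in neutrophils.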

How the data were processed

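RNA was sequenced from 12 libraries, 3 each of neutrophils and macrophages with saline or CGRP. The authors processed the reads through nfCore/RNAseq (v3.2) with molecular tags collapsed, used STAR against GRCm38 and featureCounts, and deposited raw counts per gene in a table for each cell type, without normalization. The strand setting and annotation release are not given in the sources used here. Each deposited column was matched to a sample by its name.

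From these counts, low genes were dropped with filterByExpr (edgeR) and TMM factors computed. The study's own choice, limma-voom, then tested CGRP within each cell type (threshold 0.05). Cell types and the interaction were compared in a fit over the 12 libraries. As alternatives, DESeq2 and the quasi-likelihood test of edgeR were run, as were other scalings and filters, library weights, a replicate block, a single fit, and fits leaving out each library. The steps were also run on simulated data, the outcome of which is not given here and is not used for any result. The 7 genes described were named, along with every listed gene with an adjusted p under 0.05 (at most 8 for each list and cell type) and the 2 genes most alike in pattern, and genes at low or unpassed values were added for context. Another 2 genes of the 9 chosen are not reported here and were also left out of the lists. The members and gene lists were chosen with earlier results of these data known. Positions are from GENCODE on GRCm38, promoters from RefSeq. Software was R 4.3.3, limma 3.58.1, edgeR 4.0.16, DESeq2 1.42.0 and Python 3.11.15.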

Additional observations from a re-analysis of the deposited data

Results flagged for a closer look

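The response to CGRP differed between macrophages and neutrophils, by an interaction test over 12 libraries in limma-voom, for 16 of the 122 listed or described genes tested, beside 2.36% of all genes. None of the 4 genes described that were tested in both was among the 16. Because the lists were chosen with earlier results of these data known, these shares are descriptions and do not test the lists. Values are the macrophage minus the neutrophil log2 fold change, and each had an adjusted p under 0.05. Responses were higher in macrophages for *Nfil3* (2.0), *Ddit4* (2.66), *Stat3* (0.72), *Crem* (2.88), *Vegfa* (2.24), *Fcgr2b* (1.49), *Il1b* (2.66) and *Irs2* (1.73). They were lower in macrophages for *Ptpn6* (−0.62), *Azin1* (−0.77), *Cd200r1* (−1.40), *Egr2* (−2.11), *Ccl2* (−2.10), *Ccl4* (−2.02), *Ccl3* (−1.60) and *Maf* (−1.11). *Irs2* and *Maf* did not pass within either cell type and were named after their values were seen. The neutrophil value of *Egr2* rests on 2.22 to 3.2 CPM on average, too low for the test within neutrophils. With a library left out, *Stat3* and *Maf* passed in 2 of 12 fits, *Irs2* in 3, *Ptpn6* in 6, *Ddit4* in 8 and *Egr2* in 9, and each of the other genes in all 12.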

How the results depend on the processing

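None of the genes described that could be tested was called in neutrophils under any of the 9 alternatives or any of the 6 fits with a library left out. DESeq2 gave 3 of them an adjusted p, and *Il10* was tested only with no filter. The number of genes called in neutrophils was 248, and 137 in a single fit over 12 libraries, and between 138 and 234 with a library left out (138 without saline replicate 1 or 2, 153 without CGRP replicate 2). In macrophages it was 698, but 1406 with library quality weights and 1050 in the single fit, and between 347 and 765 with a library left out (347 without saline replicate 1, 348 without CGRP replicate 2, 439 without CGRP replicate 3). Of the genes described, 4 were tested in macrophages, 6 in the single fit and 7 with no filter. Of those tested, 0 were called, but 1 with quality weights or the single fit, and between 0 and 1 with a library left out (1 without saline replicate 3), in each case *Il10ra*. Interaction calls were 252, and between 149 and 328 with a library left out (149 without saline macrophage replicate 1). With library totals in place of TMM, the calls were 150 higher and 64 lower in neutrophils (148 and 100 with TMM) 245 and 405 in macrophages (325 and 373), 88 and 154 for the interaction (129 and 123), whose median over all genes moved by −0.12, and 3720 and 3441 between the cell types (3472 and 3791). With library totals, *Il4ra* in neutrophils changed sign to 0.05. Leaving out a library changed the sign of *Retnla* (−0.56 to 0.20) and *Il4ra* (−0.05 to 0.06) in neutrophils and of the *Mrc1* interaction (−0.34 to 0.06), none of which passed in any of these fits. The *Stat3* interaction missed the threshold with library totals and with no filter (adjusted p up to 0.175). The cause of these changes was not tested except where stated.

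Same-numbered libraries did not deviate together throughout (neutrophil correlations −0.0126 to 0.135, macrophage correlations −0.176 to 0.267), so the numbers were not taken as pairs. The replicate block gave 266 calls in neutrophils, 915 in macrophages, 295 for the interaction and 7406 between the cell types, and called 0 of the genes described in neutrophils and 1, *Il10ra*, in macrophages. Among the genes described and listed, it removed no call and added 0 of 118 tested in neutrophils, 4 of 102 in macrophages (*Il10ra*, *Clec7a*, *Irs2* and *Maf*), 4 of 122 for the interaction (*Crtc3*, *F13a1*, *Msr1* and *Tgm2*) and 2 of 124 between the cell types (*Crtc3* and *Zfp36*), and not every library correlated best with its own number.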
